A study of Mus musculus with 6 samples.

Results

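Free DNA ends were described in the gene-dense stretches of the mouse genome. A window of 100 kb was taken as gene-dense when it held at least 6 starts of protein-coding genes in GENCODE vM21. Windows ran without overlap from the first base of each of chromosomes 1 to 19 of mm10, and starts of genes whose symbols begin with Olfr, Vmn, Zfp, Hist, Pcdh or Gm were not counted. The rule used only the annotation. It found 302 of 24620 full windows, 1.23% of the windows, and these held 2147 counted starts. Exactly 6 starts lay in 148 of them, 85 held at least 8, and the most was 17. Chromosome 7 carried 46 gene-dense windows, chromosome 17 carried 34 and chromosome 11 carried 33.

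The ends came from 6 libraries made by BLISS, an assay that ligates adaptors to the ends of double-strand breaks in fixed nuclei, copies the tagged DNA by in vitro transcription and sequences it. All 6 libraries are labelled as sorted forebrain neurons of CK-p25 mice, 2 weeks after doxycycline was taken out of the diet; in these mice p25, an activator of the kinase Cdk5, is switched on in forebrain neurons through the CaMKII promoter. Their titles name 3 groups of 2 libraries: Step1, Step2 and Con. The Con libraries thus carry the same genotype and induction as the others. The labels say neither what the groups stand for nor whether replicates were separate animals, so a p-value here speaks only to how these libraries vary, and that variation may be technical. The assay reads DNA, so the labelled cell type could not be checked against expression of its markers.

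Gene-dense stretches of mammalian chromosomes are rich in G and C, early in replication and full of housekeeping genes, and many of their promoters lie in CpG islands, in open chromatin that polymerase occupies. Promoters are known sites of DNA breaks, including those made by topoisomerases during transcription, and in neurons activity is known to add breaks at some early response genes. Other gene-dense stretches are arrays of tissue-restricted paralogs, such as keratins, defensins or interferons, which are mostly silent in neurons.

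The following sequences are those of the gene starts with the most distinct end positions within 1 kb, chosen because ends gathered at starts. Each runs 5′ to 3′ along the gene, from 250 bases before to 50 bases after the start in RefSeq (GRCm38.p6, the same build as mm10), and capitals mark bases that hold the 5′ end of at least 1 read in the 6 libraries.
Cnot3, chr7:3645019-3645318, plus strand: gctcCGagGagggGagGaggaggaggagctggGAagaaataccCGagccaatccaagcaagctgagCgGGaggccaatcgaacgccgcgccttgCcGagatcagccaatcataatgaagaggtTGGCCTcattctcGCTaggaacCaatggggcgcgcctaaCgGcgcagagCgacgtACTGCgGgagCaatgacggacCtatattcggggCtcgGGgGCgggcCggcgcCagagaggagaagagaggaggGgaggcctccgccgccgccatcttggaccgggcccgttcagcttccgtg
Mvd, chr8:122443373-122443672, minus strand: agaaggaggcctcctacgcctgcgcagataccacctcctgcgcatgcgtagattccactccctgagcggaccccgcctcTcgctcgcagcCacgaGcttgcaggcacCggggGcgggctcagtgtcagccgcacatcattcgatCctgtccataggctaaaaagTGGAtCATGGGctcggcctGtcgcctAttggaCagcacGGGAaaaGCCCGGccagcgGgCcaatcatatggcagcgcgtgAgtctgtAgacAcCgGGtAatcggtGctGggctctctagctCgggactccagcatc
Rab4b, chr7:27178834-27179133, minus strand: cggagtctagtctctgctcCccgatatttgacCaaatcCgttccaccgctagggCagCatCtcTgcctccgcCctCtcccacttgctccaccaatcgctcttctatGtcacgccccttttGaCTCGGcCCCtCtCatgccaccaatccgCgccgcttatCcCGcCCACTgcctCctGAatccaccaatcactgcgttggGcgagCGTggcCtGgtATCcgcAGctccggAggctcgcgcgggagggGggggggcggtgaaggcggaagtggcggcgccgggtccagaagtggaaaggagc
Cnot3, a subunit of the CCR4-NOT deadenylase, had ends at 43 of these 300 bases. Mvd, an enzyme of the mevalonate pathway, had ends at 41, and Rab4b, a small GTPase of endosomal recycling, at 46. GC made up 64.3%, 62.3% and 64.3% of the bases in these 3 sequences, and each held the letters GGGCGG on either strand at least once. Nlgn2, an adhesion protein of inhibitory synapses, ranked above them all by end positions within 1 kb, but only 3 reads fell in its own 300 bases. Its remaining ends lay further upstream, on the side shared with the neighbouring start of Tmem256. Of 2139 symbols of gene-dense starts, 1695 matched the RefSeq promoter table. GGGCGG stood on either strand in 53.9% of the 2101 promoters of gene-dense genes and in 36.0% of all 31396 promoters of chromosomes 1 to 19, and the median number of CpG was 16 against 7. The 2 sets are unlike, since only counted protein-coding genes enter the first. The second spans 25748 symbols, more than the 17584 counted coding starts of all windows. What part gene density has in the difference was not tested.

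The libraries held 2403238 and 2043098 reads in Step1, 1526487 and 1480461 in Step2, and 2300995 and 2273508 in Con. All 302 gene-dense windows passed the count filter, with a median of 45 to 76 end positions per window and library. The submitters state that copies were removed by molecular identifier, so each read should stand for 1 molecule. Whether all copies were removed was not checked here. The share of reads that stacked on an already used position differed between libraries. Reads per distinct position in gene-dense windows were 1.13 and 1.16 in Step1, 1.18 and 1.20 in Step2, and 1.23 and 1.39 in Con; over all windows they were 1.19 and 1.22, 1.24 and 1.27, and 1.29 and 1.42. Con replicate 2 stood apart from the other 5 libraries in this measure and in several others. Values without it are given beside some of the group differences, and the Con means below include it unless stated. Because positions stack, densities count 1 read per position and strand unless stated. All values are shares of a library, and in bulk libraries fewer cells with a break and fewer breaks per cell cannot be told apart.

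Gene-dense windows carried close to their share of ends in Step1 and Step2 and somewhat more in Con. They make up 1.26% of the bases that are not N. They held 1.23% (95% Wilson interval 1.22% to 1.25%) and 1.26% (1.25% to 1.28%) of end positions on chromosomes 1 to 19 in the Step1 libraries. The Step2 libraries had 1.28% (1.26% to 1.301%) and 1.26% (1.24% to 1.28%), and the Con libraries 1.31% (1.29% to 1.32%) and 1.45% (1.43% to 1.47%). These intervals cover counting error only. As a density per base over that of chromosomes 1 to 19, this was 0.979 and 1.00 in Step1 (mean 0.992 ± 0.018, SD, n = 2), 1.02 and 1.00 in Step2 (1.01 ± 0.010) and 1.04 and 1.15 in Con (1.096 ± 0.082). Both Con libraries lay above all 4 others, Con replicate 1 by less than the distance between the 2 Con libraries. No test was made of these densities. They also moved with the sequencing run. The means of Step1 and of Step2 were below 1 in run 1 and above 1 in run 2, with values in the closing section. With all reads counted the densities were 0.942 ± 0.019 in Step1, 0.957 ± 0.010 in Step2 and 1.06 ± 0.096 in Con.

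Within the windows, ends gathered at gene starts. The bases within 1 kb of any protein-coding start make up 13.1% of gene-dense windows, against 1.63% of all windows. They held 17.9% and 19.5% of the end positions of gene-dense windows in Step1, 18.6% and 20.04% in Step2, and 20.5% and 25.4% in Con. Their density over chromosomes 1 to 19 was 1.34 and 1.499 in Step1, 1.45 and 1.54 in Step2, and 1.63 and 2.25 in Con. Windows with 3 to 5 starts came close to this within 1 kb of starts. They had 1.31 and 1.47 in Step1, 1.46 and 1.53 in Step2, and 1.58 and 2.11 in Con. The rest of the gene-dense windows was below the average of the chromosomes in every library, at 0.925 and 0.930 in Step1, 0.953 and 0.923 in Step2, and 0.949 and 0.990 in Con. Near starts the Con libraries were again above the other 4. In the rest of the window the Con and Step2 libraries overlapped.

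**Figure D1:**
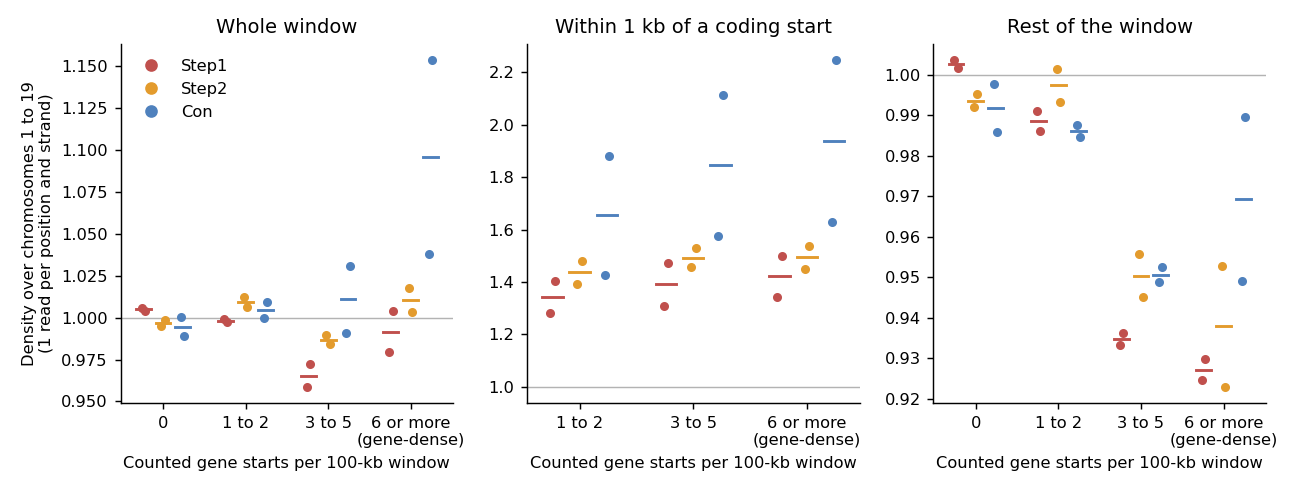
Density of end positions over that of chromosomes 1 to 19 (y axis, ratio, scaled separately in each panel) in windows with 0, 1 to 2, 3 to 5 and 6 or more counted starts (x axis). Each point is a library and each bar the mean of 2 libraries of Step1, Step2 or Con; gene-dense windows average 0.992, 1.01 and 1.096 as a whole, and 1.42, 1.49 and 1.94 within 1 kb of a start.

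The pile of ends at starts was narrow and sat just upstream. Summed over the 2147 starts and oriented along the gene, the densest of the 200-base bins was the one from 200 bases before the start to the start itself, in every library. Within 200 bases on either side the density over chromosomes 1 to 19 was 2.30 and 2.75 in Step1, 2.27 and 2.67 in Step2, and 3.42 and 5.42 in Con. At 4 to 5 kb it was 0.953 and 0.927 in Step1, 0.945 and 0.937 in Step2, and 0.971 and 1.05 in Con. The ratio of the centre to these flanks was 2.69 ± 0.40 in Step1, 2.62 ± 0.32 in Step2 and 4.33 ± 1.15 in Con (SD, n = 2). Without Con replicate 2, the Con value is that of replicate 1, 3.52, still above the 2.97 of the highest Step1 library. At the 9448 starts of windows with 1 to 2 starts the ratio was lower in each library, at 2.08 ± 0.25 in Step1, 2.08 ± 0.22 in Step2 and 3.38 ± 1.03 in Con. The ratio was not taken in windows with 3 to 5 starts. An end near several starts counted once for each of them. Hjurp and Trpm8, for example, start close together and each had 88 end positions within 1 kb, summed over libraries. What part such shared ends have in the ratios was not tested.

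**Figure D2:**
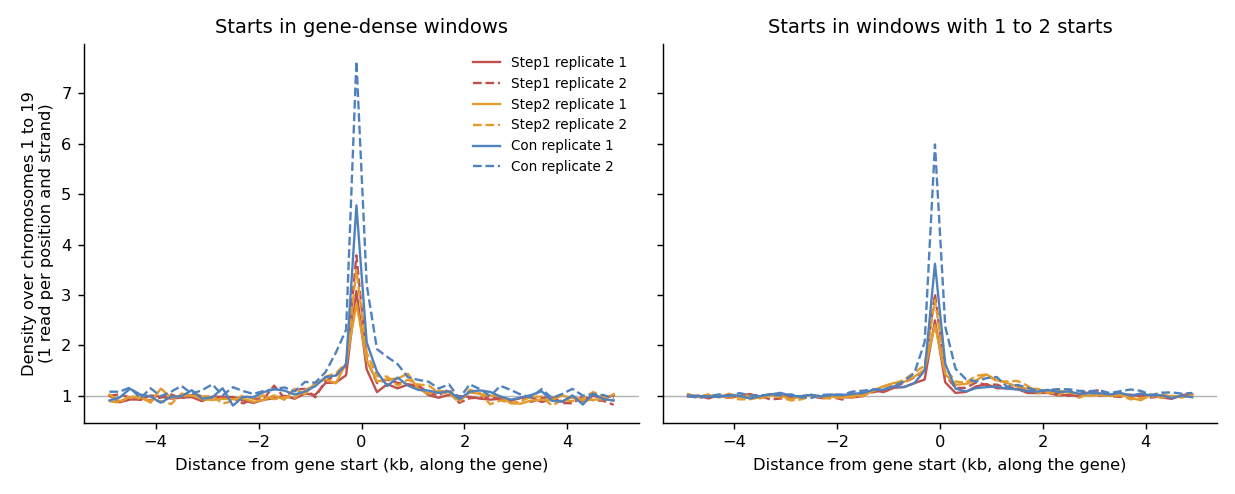
Density of end positions over that of chromosomes 1 to 19 (y axis, ratio) in 200-base bins against the distance from the gene start (x axis, kb, negative upstream), for starts in gene-dense windows and in windows with 1 to 2 starts. Each line is a library; the peak bin lies just upstream of the start in all 6, and reaches 3.08 and 3.78 in Step1, 2.83 and 3.49 in Step2, and 4.78 and 7.64 in Con at gene-dense starts.

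Few ends fell at any given start, and they were spread unevenly. A gene-dense start had a median of 1 to 2 end positions within 1 kb in a library, and 17.1% to 30.8% of the starts had none. The tenth of starts with the most ends held 33.3% and 38.3% of them in Step1, 32.8% and 36.6% in Step2, and 39.1% and 44.5% in Con. Ends shared by neighbouring starts count at each of them in these shares. In RPM, reads scaled by library size, and with 1 read per position and strand, the Nlgn2 start had 8.44 and 17.3 in Step1, 4.91 and 10.3 in Step2, and 11.8 and 20.1 in Con. Values at Cnot3, printed above, were 8.44 and 10.2 in Step1, 2.45 and 11.2 in Step2, and 9.02 and 25.1 in Con. Mvd had 6.46 and 11.3 in Step1, 6.54 and 8.58 in Step2, and 11.3 and 20.7 in Con. Con replicate 2 was the highest library at each of these starts, and the other 5 libraries overlapped across groups at all 3.

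The whole-window density did not climb evenly with the number of starts. Windows with 3 to 5 starts had 0.966 ± 0.010 in Step1, 0.987 ± 0.004 in Step2 and 1.01 ± 0.028 in Con, and those with 1 to 2 starts 0.998 ± 0.001, 1.01 ± 0.004 and 1.00 ± 0.007. At the threshold, windows with exactly 6 starts had 0.995, 1.01 and 1.08 in Step1, Step2 and Con, and windows with 5 starts, just outside it, 0.973, 0.979 and 1.04. With 8 or more starts the means were 1.00, 1.03 and 1.13. Across the 302 gene-dense windows the level in end positions was only weakly related to the number of starts, with a Spearman correlation of 0.09 in Step1, 0.16 in Step2 and 0.18 in Con; windows within a library share its depth, so these are descriptions.

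Base composition moves with gene density. GC was 48.8% in gene-dense windows and 41.9% in all windows, CpG stood at 15.7 and 8.51 per kb, and repeats masked 27.5% and 33.5% of bases. Among windows of like GC, gene-dense windows had the highest mean density of the 4 classes in each group and in each GC range from 44% up. The exception, once the densest window is left out, is Step2 at 46% to 48% GC, where gene-dense windows had 0.998 and windows with 1 to 2 starts 0.999. In windows of 50% to 52% GC, for example, the 75 gene-dense windows had 0.985 ± 0.037 in Step1, 1.00 ± 0.002 in Step2 and 1.09 ± 0.081 in Con. The 250 windows with 1 to 2 starts in that range had 0.893 ± 0.003, 0.925 ± 0.018 and 0.914 ± 0.023. Outside 1 kb of starts the classes lay closer in this range: 0.909 ± 0.018, 0.913 ± 0.009 and 0.943 ± 0.019 in gene-dense windows, and 0.885 ± 0.002, 0.914 ± 0.019 and 0.902 ± 0.018 in those with 1 to 2 starts. At 48% to 50% GC gene-dense windows were the lower there, at 0.913, 0.923 and 0.936 against 0.924, 0.956 and 0.941. They were also lower in each group at 44% to 46%. At 46% to 48%, without the densest window, they were lower in Step1 and Step2 and higher in Con. At 52% or more they were lower in Step1 only. In limma fits of single windows with all reads, the median log2 fold change over the gene-dense windows was -0.09 for Step1 and -0.11 for Step2 against Con once a smooth of GC was removed, and -0.12 for both without that step. With 1 read per position it was -0.08 for Step1 and -0.09 for Step2 with the smooth removed, against -0.13 and -0.10 without.

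**Figure D3:**
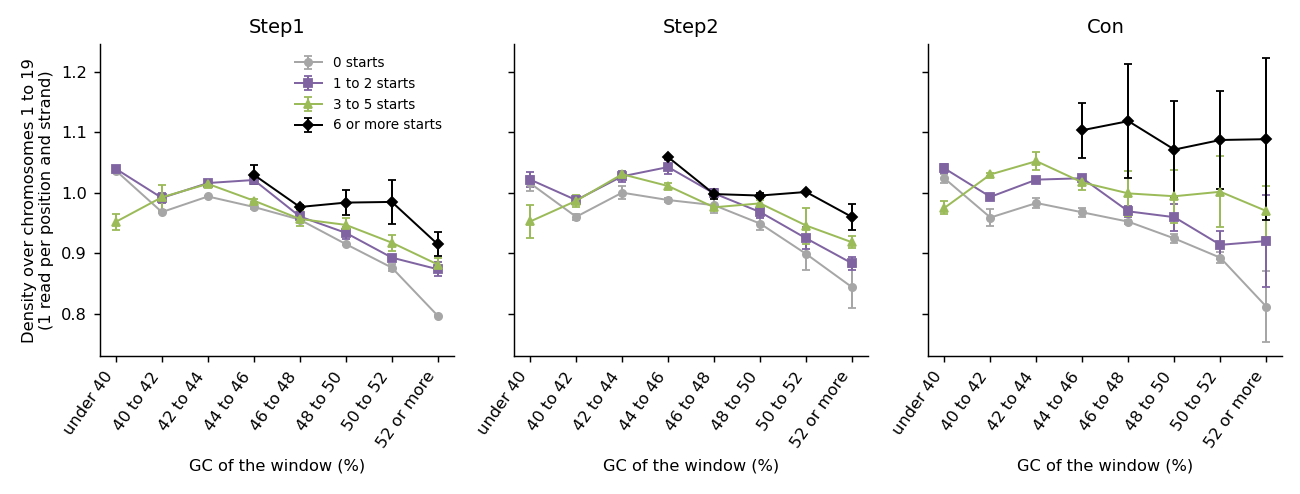
Mean density of end positions over chromosomes 1 to 19 (y axis, ratio) by GC of the window (x axis, percent) for windows with 0, 1 to 2, 3 to 5 and 6 or more starts, with 1 panel each for Step1, Step2 and Con; error bars are the SD of 2 libraries, and the densest gene-dense window is left out. At 50% to 52% GC the gene-dense windows average 0.985, 1.00 and 1.09 in Step1, Step2 and Con.

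What kind of genes a dense window held went with the density of ends within 1 kb of its starts. In 36 of the 302 windows at least 50% of the counted starts shared a symbol root; these single-family windows were arrays of keratins and keratin-associated proteins (5 windows), cornified envelope genes of the Lce and Sprr families (4), Hox genes (3), beta-defensins (3), interferon alpha genes, kallikreins, taste receptors and others. Their density within 1 kb of starts was 1.01 and 0.918 in Step1, 1.07 and 1.00 in Step2, and 0.859 and 0.978 in Con. The 266 windows of mixed genes had 1.39 and 1.58 in Step1, 1.504 and 1.61 in Step2, and 1.74 and 2.42 in Con at their starts. Every library was thus higher near starts in mixed than in single-family windows. Of the mixed windows, 71 held a start whose symbol marks a ribosomal, mitochondrial respiratory, proteasome, RNA polymerase or translation initiation gene, and these had 1.58 ± 0.13 in Step1, 1.66 ± 0.14 in Step2 and 2.17 ± 0.62 in Con. The 195 other mixed windows had 1.45 ± 0.14, 1.52 ± 0.05 and 2.04 ± 0.43. The windows with such genes were the higher of these in 5 of the 6 libraries, by less on average than their SD between replicates. Single-family windows had a lower GC, 44.1% against 49.4% in mixed windows, and fewer CpG, 10.3 against 16.4 per kb.

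Among single windows, levels are given in RPM, with 1 read per position and strand, per 100 kb of bases that are not N. The median gene-dense window had 38.0 and 38.8 in Step1, 39.2 and 39.1 in Step2, and 40.03 and 44.01 in Con; the medians of all windows ran from 39.4 to 40.1. The lowest mean level belonged to chr11:115000001-115100000, which holds the Cd300 cluster of leukocyte receptors, with 21.4 and 29.3 in Step1, 28.6 and 25.8 in Step2, and 29.9 and 20.1 in Con. Next came chr2:26300001-26400000, from Gpsm1 to Pmpca, with 24.5 to 33.8 over the 6 libraries, and chr3:87900001-88000000, which holds Nes, the intermediate filament nestin of neural progenitors, with 26.6 to 37.6. In none of these 3 windows were the groups apart in Step1 or Step2 against Con.

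The highest by far was chr1:88200001-88300000, which holds the starts of Ugt1a2 and Ugt1a1, UDP-glucuronosyltransferases that conjugate bilirubin and drugs, of Dnajb3, Mroh2a and Hjurp, the chaperone of the centromeric histone CENP-A, and of Trpm8, a cold-sensing channel. It had 174 and 199 in Step1, 187 and 176 in Step2, and 190 and 179 in Con, so the groups overlapped and every library was more than 4 times the median gene-dense window. Its most used position held 9 reads, 0.44% of the reads there. Along the window, the density over chromosomes 1 to 19 was above 1 in each 10-kb bin and library, with means of 8.98 in Step1, 9.12 in Step2 and 7.83 in Con from 20 to 30 kb. The neighbouring window upstream had 27.7 to 45.98 and the one downstream 54.6 to 67.5. Reads with a mapping quality of at least 30 made up 85.3% to 91.8% of its reads by library, against 95.5% to 96.4% in all gene-dense windows. Without it, the density of gene-dense windows was 0.979 in Step1, 0.999 in Step2 and 1.08 in Con.

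**Figure D4:**
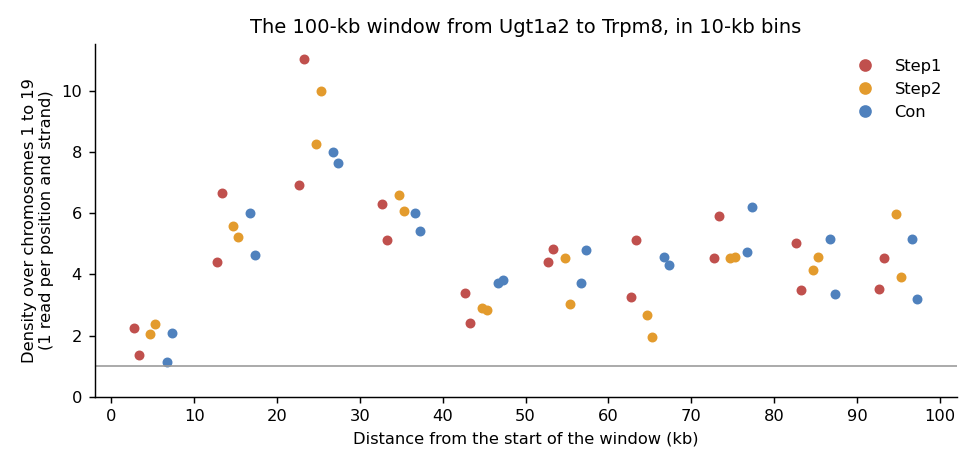
Density of end positions over chromosomes 1 to 19 (y axis, ratio) in the 10-kb bins of the densest gene-dense window (x axis, distance from the start of the window, kb). Points are the 6 libraries of Step1, Step2 and Con and the line marks the average of the chromosomes; all points lie above it, and the bin from 20 to 30 kb has means of 8.98, 9.12 and 7.83.

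The next 5 windows by level were all mixed, and 4 of them are given here. The window chr7:3600001-3700000, which holds Cnot3, the splicing factor Prpf31 and the respiratory subunit Ndufa3, had 52.6 and 51.3 in Step1, 49.1 and 60.1 in Step2, and 51.9 and 84.9 in Con. The window chr11:69000001-69100000, with the clock gene Per1, the synaptic vesicle protein Vamp2 and the mitotic kinase Aurkb, had 46.7 and 44.2 in Step1, 32.7 and 52.4 in Step2, and 60.9 and 76.1 in Con, both Con libraries above the others. At chr7:44900001-45000000, which holds the arginine methyltransferase Prmt1 and the interferon regulator Irf3, the values were 37.7 and 63.3 in Step1, 47.4 and 48.9 in Step2, and 61.5 and 67.3 in Con, where Step1 overlapped Con and Step2 did not. At chr14:55500001-55600000, with the proteasome activator genes Psme1 and Psme2, they were 47.7 and 49.0, 55.6 and 45.5, and 48.5 and 66.0, and the groups overlapped.

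The windows with the most starts were not the densest in ends. The window with 17 starts, chr2:25200001-25300000, which holds the tubulin gene Tubb4b and the anaphase-promoting subunit Anapc2, had 38.7 and 45.98 in Step1, 43.3 and 41.2 in Step2, and 41.2 and 50.3 in Con, with overlapping groups. That with 14 starts, chr19:6900001-7000000, had 35.3 and 34.0 in Step1, 45.8 and 48.1 in Step2, and 49.1 and 56.6 in Con, with Con apart. The one with 13, chr19:8800001-8900000, which holds Bscl2, the lipid droplet protein seipin, had 42.7 and 53.7, 43.3 and 53.2, and 50.2 and 65.4.

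Over all windows the median level was 39.4 to 40.1 in the 6 libraries. Among arrays of 1 gene family, the 8 Hoxa genes of chr6:52200001-52300000, regulators of body axis patterning, had 36.2 and 43.0 in Step1, 47.4 and 41.2 in Step2, and 35.5 and 41.5 in Con. The 6 type I hair keratins at chr11:100000001-100100000 had 43.2 and 38.8, 41.7 and 34.3, and 37.2 and 39.6 in the same order. Keratin-associated proteins at chr11:99500001-99600000 had 34.6 to 57.2 over the 6 libraries, kallikreins at chr7:43700001-43800000 31.1 to 49.0, beta-defensins at chr2:152500001-152600000 43.4 to 55.1 and interferon alpha genes at chr4:88800001-88900000 32.2 to 43.4. The beta-defensin window was above the median of all windows in every library, and the others were on both sides of it. Of the mixed windows that hold members of such families, that with 4 Ly6 genes (chr17:35000001-35100000) ran from 30.8 to 45.0, that with 3 genes of H2 symbols, from the major histocompatibility complex (chr17:34000001-34100000) from 35.3 to 42.9, and that with 2 Cyp genes (chr7:27100001-27200000, which also holds Rab4b) from 36.2 to 56.0. No gene-dense window held a Serpin start.

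Step1 against Con was compared with limma's voom fit over all 25381 windows of chromosomes 1 to 19 and X with enough reads, first with all reads counted. Of the 302 gene-dense windows, 200 had a fold change below 0 and the median log2 fold change was -0.12, against 0.01 over all windows. No gene-dense window was called at a Benjamini-Hochberg adjusted p of 0.05 (0.0158% of all tested windows were), 42 had an unadjusted p under 0.05 (7.27% of all), and limma-trend called 0 as well (0.0552% of all). Both Step1 libraries were below both Con libraries in 103 gene-dense windows, 34.1% of them, where 17.5% of all windows were, and above them in 31, or 10.3%, where 19.2% of all were. With 1 read per position and strand, 223 were below 0, the median was -0.13, and limma called 0 (0% of 25334 windows), with 58 at an unadjusted p under 0.05 (8.28% of all). The libraries were then apart with Step1 lower in 118 (18.5% of all windows) and higher in 24 (18.95% of all). Windows with 3 to 5 starts lay on the same side. In that count 73.8% of the gene-dense windows were below 0, against 73.0% of the 252 windows with exactly 5 starts, whose median was -0.10. Those with 3 to 5 starts had -0.06, with 63.1% below 0, those with 1 to 2 starts -0.0019 and those with 0 starts 0.02. With all reads, 66.2% of the gene-dense windows and 61.1% of those with exactly 5 starts were below 0.

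The kinds of gene-dense window had medians of opposite sign, a difference that was not tested. Mixed windows had a median of -0.15 with 1 read per position, 210 of 266 below 0, and the 71 with housekeeping genes had -0.14, 58 below 0. The 36 single-family windows had 0.07, with 23 above 0 and 13 below. Leaving out Con replicate 2 left a median of -0.07 over all gene-dense windows, 186 below 0, with -0.09 in mixed and 0.07 in single-family windows. Without Con replicate 1 the medians were -0.22, -0.25 and 0.03, and the single-family windows were split evenly, 18 above 0 and 18 below. The median over the gene-dense windows thus moved by over 1.5 times with either Con library left out. In the fit without Con replicate 1, 7 gene-dense windows were called lower (0.142% of all windows), or 12 with all reads (0.599%). Con is then replicate 2 alone, the library that stood apart, the spread is that of the Step1 and Step2 libraries, and these calls carry no information on the spread within Con. Reads per position, the measure in which Con replicate 2 stood apart, moved with the size of the shift, and its part was not tested.

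The 3 gene-dense windows with the smallest p for a lower value in Step1 are given as values in RPM, all reads counted. The window chr19:6900001-7000000 holds 14 starts, among them Esrra, an orphan nuclear receptor, the apoptosis regulator Bad and the growth factor Vegfb. It had 36.4 and 34.0 in Step1, against 51.7 and 74.7 in Con, with a log2 fold change of -0.81 ± 0.21 (adjusted p = 0.185, limma). The Cnot3 window had 53.5 and 50.5 in Step1 and 71.2 and 107 in Con (-0.75 ± 0.21, adjusted p = 0.373, limma). The window chr17:24400001-24500000, with the splicing activator Rnps1 and the mTOR complex subunit Mlst8, had 35.1 and 30.9 in Step1 and 49.5 and 55.9 in Con (-0.66 ± 0.21, adjusted p = 0.433, limma). In all 3 the groups did not overlap; with 1 read per position they were still apart in the Esrra and Rnps1 windows, at -0.60 and -0.49, and overlapped in the Cnot3 window. At 1 position Con replicate 1 alone had 17 reads in the Cnot3 window and 19 in the Rnps1 window.

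In the other direction, chr19:6100001-6200000, with the sorting nexin Snx15 and the small GTPase Arl2, had 46.9 and 36.1 RPM in Step1 and 34.9 and 24.3 in Con (log2 fold change 0.50 ± 0.22, adjusted p = 0.623, limma). The seminal vesicle secretory genes at chr2:164200001-164300000 had 45.6 and 46.9 in Step1 and 42.2 and 27.5 in Con (0.44 ± 0.21, adjusted p = 0.667, limma). The window chr7:29200001-29300000, with the potassium channel Kcnk6, had 39.9 and 43.8 in Step1 and 29.5 and 34.3 in Con (0.39 ± 0.21, adjusted p = 0.725, limma). Step1 was the higher in both libraries of each, by margins that did not pass the test.

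Step2 was set against the same Con libraries, which both comparisons share. Of the 302 gene-dense windows 202 were below 0 with all reads, with a median log2 fold change of -0.12 against 0.01 over all windows, and 45 had an unadjusted p under 0.05 (8.25% of all). Both Step2 libraries lay below both Con libraries in 95, or 31.5%, where 18.1% of all windows did, and above them in 27, or 8.94%, where 18.9% did. With 1 read per position and strand 209 were below 0, the median was -0.10, and the libraries were apart with Step2 lower in 89 (18.7% of all windows) and higher in 37 (19.2% of all). In that count limma called 0 gene-dense windows (0.0197% of all), with 38 at an unadjusted p under 0.05 (8.12% of all). Mixed windows had a median of -0.11 and single-family windows one of 0.06, with 20 of the 36 above 0. With all reads, 66.9% of the gene-dense windows were below 0, against 65.5% of the windows with exactly 5 starts, whose median was -0.11. With 1 read per position these shares were 69.2% and 62.7%. Without Con replicate 2 the median over the gene-dense windows was -0.04, and without Con replicate 1 it was -0.19, with 1 window called lower (0.0276% of all), or 8 with all reads (0.485%), again against a single Con library.

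**Figure D5:**
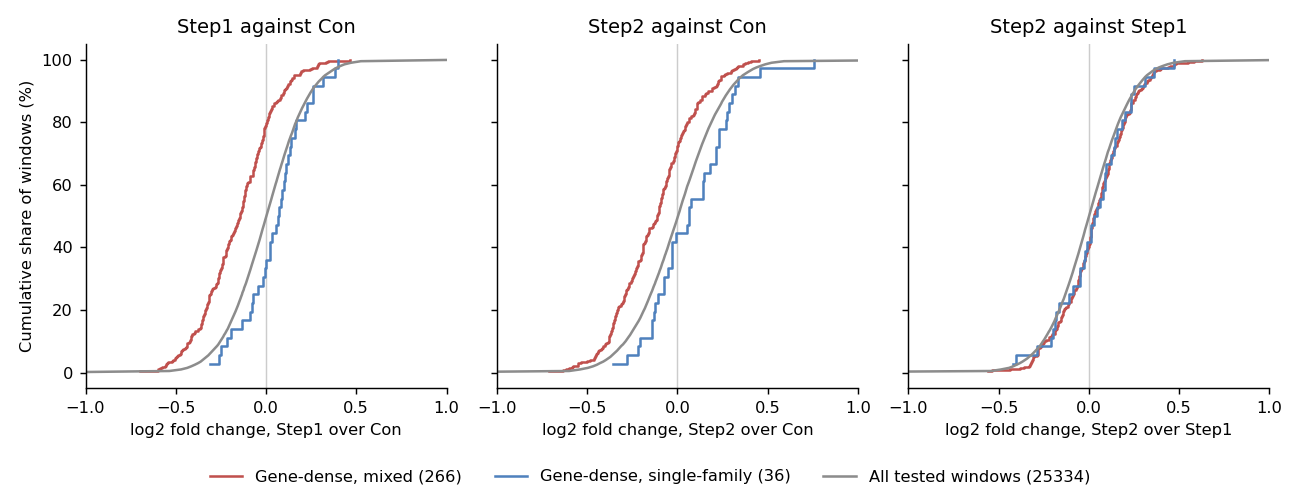
Cumulative share of windows (y axis, percent) by log2 fold change with 1 read per position and strand (x axis, the first-named group over the second) for the 266 mixed and 36 single-family gene-dense windows and all 25334 tested windows. Mixed windows lie left of all windows in Step1 and in Step2 against Con, with medians of -0.15 and -0.11, single-family windows right of them, at 0.07 and 0.06, and the 3 curves run close together in Step2 against Step1.

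One gene-dense window was called in Step2 against Con, with all reads and lower in Step2; 0.0906% of all tested windows were called, 0.0473% lower. The window is chr7:45600001-45700000, with 9 starts, among them those of Fgf21, a hormone of the fasting response, the fucosyltransferases Fut1 and Fut2, and Izumo1, the sperm protein that binds the egg. It had 41.1 and 33.9 RPM in Step2, against 67.6 and 83.4 in Con, with no overlap and a log2 fold change of -0.998 ± 0.23 (adjusted p = 0.0365, limma). The Step1 libraries, at 46.9 and 55.6, lay between. With 1 read per position and strand it had 42.5 and 35.2 RPM in Step2 and 61.5 and 59.7 in Con, a log2 fold change of -0.64 ± 0.18 that was not called (adjusted p = 0.198, limma). At 1 position in this window Con replicate 2 had 18 of its reads and Con replicate 1 had 5. By limma-trend the same gene-dense window was the 1 called (0.130% of all). The call by the voom fit was also lost in either sequencing run alone, in a fit of these 2 groups only, and on leaving out any library but Con replicate 1.

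The 3 gene-dense windows with the smallest p for a higher value in Step2 were all single-family arrays, and none was called. Type II keratin genes at chr15:101400001-101500000, from Krt7 to Krt83, had 50.7 and 49.4 RPM in Step2 and 31.3 and 34.8 in Con (log2 fold change 0.60 ± 0.21, adjusted p = 0.345, limma). The value with 1 read per position was 0.76 ± 0.19 (adjusted p = 0.105, limma). Cystatin genes at chr2:148700001-148800000 had 39.8 and 52.2 in Step2 and 30.9 and 28.4 in Con (0.62 ± 0.22, adjusted p = 0.371, limma); 13 of the reads of Step2 replicate 2 lay at a single position there, and with 1 read per position the value was 0.15. Serine protease genes at chr9:110800001-110900000 had 49.4 and 44.4 in Step2 and 32.2 and 34.8 in Con (0.49 ± 0.21, adjusted p = 0.517, limma). The groups did not overlap in any of the 3.

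Step2 was set against Step1 in the same fit. With all reads 160 gene-dense windows were above 0 and 142 below, the median log2 fold change was 0.02 against -0.0041 over all windows, and 0 were called (0.0433% of all windows), with 12 at an unadjusted p under 0.05 (4.29% of all) and 0 called by limma-trend (0.0552%). The libraries were apart with Step2 higher in 52 gene-dense windows, 17.2%, and lower in 53, 17.5%, close to the 16.5% and 17.5% of all windows. With 1 read per position and strand 180 were above 0 and limma called 0 (0.00789% of all), with 16 at an unadjusted p under 0.05 (5.51%). Step2 was then the higher in both libraries in 61, or 20.2%, and the lower in 43, or 14.2%, against 17.1% of all windows in either direction. The smallest p for a higher value was at chr1:171300001-171400000, with the death effector protein Dedd, which had 52.8 and 40.9 RPM in Step2 and 31.1 and 28.3 in Step1 (0.64 ± 0.23, adjusted p = 0.999, limma). The smallest for a lower value was at chr4:129600001-129700000, with the translation initiation factor Eif3i, which had 26.7 and 25.4 in Step2 and 45.6 and 34.5 in Step1 (-0.60 ± 0.25, adjusted p = 0.999, limma). Next among the higher were chr17:56000001-56100000, from Stap2 to Hdgfl2, at 0.57, and chr19:4000001-4100000, from Nudt8 to Pitpnm1, at 0.58. Next among the lower was chr9:50700001-50800000, from Dixdc1 to Alg9, at -0.59. In these 5 windows the groups did not overlap.

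In a few windows 1 position held a large part of the reads. The 2 with the largest such share are shown with 20 bases before the first base of the stacked reads and 40 from it on, plus strand of mm10, and capitals mark the first 10 bases of those reads.
Grin1 window, chr2:25310605-25310664: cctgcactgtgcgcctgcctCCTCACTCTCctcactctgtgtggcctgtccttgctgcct
Ciart window, chr3:95882370-95882429: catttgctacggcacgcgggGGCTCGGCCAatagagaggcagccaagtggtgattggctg
The first lies inside Grin1, which encodes the subunit common to all NMDA receptors, outside its exons and 8562 bases from its start. It held 14 and 11 reads in Step1, 4 and 2 in Step2, and 20 and 42 in Con, 17.95% of the reads of its window. The second lies 139 bases from the start of Ciart, a repressor of the circadian clock, in an antisense gene (C920021L13Rik), with 21 and 11 reads in Step1, 1 and 4 in Step2, and 22 and 27 in Con (13.2% of its window). Both positions had reads in all 6 libraries and the most in Con replicate 2. Counting 1 read per position removed part of the group difference in these windows: Step2 against Con, the log2 fold change was -0.68 with all reads and -0.35 with 1 read per position at Grin1, and -0.64 and -0.34 at Ciart.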

How the data were processed

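The deposited BED files hold 1 aligned read per line for 6 BLISS libraries; column 5 of the deposited lines is the mapping quality score that the authors' aligner gave each read, from 11 to 42. Per the series' design text and the submitters' processing notes, the authors removed duplicates by molecular identifier, aligned reads to mm10 with Bowtie2, and used SAMtools and bedtools (no version stated). Counts were made here from the deposited lines, as 5′ ends per 100-kb window, with all reads and with 1 read per position and strand. Library size was the reads on chromosomes 1 to 19 and X outside 26 windows of 10 kb with over 20 times the median count of 45. Windows that reached 10 reads in 2 or more libraries were fitted over all 3 groups with limma 3.58.1 (voom, empirical Bayes; R 4.3.3), and p-values were adjusted by Benjamini-Hochberg over all windows at a threshold of 0.05; errors beside fold changes are standard errors. Densities were not tested. Other steps used Python 3.11.15 and pandas 2.3.3.

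On simulated data, fits at this size recovered 78%, 69% and 68% of 2-fold changes, and 12%, 6% and 13% of 1.5-fold changes, in Step1 against Con, Step2 against Con and Step2 against Step1. False calls numbered 5, 1 and 1. The simulation used 1 fixed spread for all windows and libraries, not estimated from these data. Changed windows were drawn from all tested windows, and no simulated library stood apart as Con replicate 2 did. Windows were named where called, or as the 3 with the smallest p per direction where none was called; as the 6 highest, 3 lowest, 3 richest in starts and 3 most stacked; and, for each of 10 gene families, as the window with the most members. For sequences the rule took the 4 starts with the most end positions; the Tmem256 start, which shares its ends with Nlgn2, was not taken, and the Nlgn2 sequence is not printed. 3 windows that these rules name are not reported here. The members and lists were chosen with earlier results of these data known. Alternatives were other scalings, filters, mapping quality of at least 30, limma-trend, a replicate block, a GC smooth, each sequencing run, 2 groups only, each library left out, windows shifted by 50 kb and other minimums of starts.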

Additional observations from a re-analysis of the deposited data

How the results depend on the processing

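Gene-dense windows called in Step1 against Con stayed at 0 except without Con replicate 1, where 12 were called with all reads and 7 with 1 read per position; over the left-out libraries the counts ran from 0 to 12, and from 0 to 7. The single call in Step2 against Con was lost (0 called) with 1 read per position, also with its replicate block or GC smooth, in sequencing run 1, in run 2 and in the fit of 2 groups only, and ran from 0 to 8 over left-out libraries with all reads and from 0 to 1 with 1 read per position, with 8 called without Con replicate 1. In Step2 against Step1, 1 of 554 windows with 5 or more starts was called (0.0433% of all tested windows were). That window held exactly 5 starts and so was not gene-dense. Median log2 fold changes over left-out libraries ran from -0.1942 (without Con replicate 1) to -0.0386 (without Con replicate 2) in Step1 against Con, or from -0.2208 to -0.0737 with 1 read per position. In Step2 against Con they ran from -0.1938 to -0.0404, or from -0.1883 to -0.0441. In Step2 against Step1 the median was -0.0033 with the GC smooth removed, -0.0106 with both that and 1 read per position, and ran from -0.0054 without Step2 replicate 1 to 0.0348 without Step2 replicate 2. With 1 read per position it was 0.0451 without Step1 replicate 2 and 0.0478 without Step2 replicate 2. The density in Step1 was 0.9416 with all reads, 0.9264 in run 1, 1.0322 in run 2 and 0.9271 without bases near starts. In Step2 it was 0.9569, 0.9469, 1.047 and 0.9378 in those settings, 0.9964 with 5 or more starts, 1.0346 with 8 or more and 0.9987 without the densest window. In Con it was 0.9693 without bases near starts. None of the 26 windows of 10 kb left out of the library size lies in a gene-dense window. With all reads outside them, the density was 0.9937 in Step1, 1.0023 in Step2 and 1.1023 in Con. The cause of the moves between settings was not tested. The fits without Con replicate 1 leave 1 Con library, replicate 2, which is assumed to vary like the libraries of the other groups, so their calls do not bear on the spread within Con. In that fit chr19:6900001-7000000 (-1.08) and chr7:3600001-3700000 (-1.04) passed the threshold in Step1 against Con.

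No pairing by replicate number was seen. Same-numbered libraries of different groups had correlations of 0.0099 to 0.0106 in their deviations from the group means. Counting noise is large in windows with so few reads and lowers such correlations, so this check cannot exclude pairing. The replicate block left 0, 1 and 0 calls in the 3 comparisons with all reads. Fits that combine 1 read per position with another change, and the density without the densest window, were chosen after seeing the data. With 2 libraries per group and 45 to 76 end positions in a median gene-dense window, changes of 1.5-fold were mostly missed in simulation.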
